A study of Homo sapiens with 4 samples.

Results

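The cell cycle genes of K562-U2AF1_S34F cells were compared between cells given the compound SF1-8 and cells given its solvent DMSO. Members were the entries of the expression table whose KEGG annotation names the cell cycle pathway, leaving out entries also annotated to DNA replication and those of MYC, ABL1, SKP1, CDK7, CCNH and the TGFB genes, which belong to other processes as well. Of 125 entries with that annotation, 7 were left out for DNA replication and 8 by symbol, so that 110 of the 64873 entries of the table remained, naming 109 cell cycle genes. 1 gene had 2 entries. K562 is an established human leukemia line, and all libraries came from cells overexpressing the S34F mutant of the splicing factor U2AF1. The DMSO group and the SF1-8 group had 2 libraries each, and SF1-8 was given at 30 uM for 48 h. No library of cells without the mutant was analysed here, so every comparison is within the mutant background. The labels do not say whether libraries of a group came from separate cultures, so the p-values measure only the spread between these libraries, which may be technical.

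The cell cycle is driven by cyclin-dependent kinases, whose activity depends on cyclins that are made and destroyed in turn. D and E cyclins carry cells from G1 into S phase by relieving the RB proteins' hold on E2F transcription factors, origins of replication are licensed and then fired, and A and B cyclins with CDK1 bring cells into mitosis. Checkpoints halt this order when DNA is damaged or chromosomes are not attached to the spindle, and the anaphase-promoting complex ends mitosis by marking securin and B cyclins for destruction. Many of the mitotic genes are switched on in G2 through short promoter elements, the CCAAT box and the CHR, and many S phase genes through E2F sites.

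The promoters of 4 members illustrate the search for these elements. None of the 4 held the E2F letters searched, which are exact strings and miss other forms of the site. RefSeq's table for GRCh38.p14 held the 250 bases before the start of 93 of the 109 genes. The 4 below were chosen because CCNB2 and CDC20 carry the 2 mitotic elements together, CDC6 carries CCAAT boxes without a CHR, and DBF4, which is 1 of the 2 members with an unadjusted p under 0.05, carries none of the letters searched. All lie on the + strand, CCNB2 at chr15:59104896-59105145, CDC20 at chr1:43358731-43358980, CDC6 at chr17:40287629-40287878 and DBF4 at chr7:87876243-87876492. Capitals mark CCAAT or, for the opposite strand, ATTGG, and TTTGAA or its reverse TTCAAA, the letters of the CHR.
CCNB2: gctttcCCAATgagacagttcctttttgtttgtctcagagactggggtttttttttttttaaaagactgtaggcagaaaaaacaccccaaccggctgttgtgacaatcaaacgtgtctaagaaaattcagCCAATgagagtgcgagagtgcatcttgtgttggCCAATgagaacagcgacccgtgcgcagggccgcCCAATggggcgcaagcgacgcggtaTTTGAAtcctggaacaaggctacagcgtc
CDC20: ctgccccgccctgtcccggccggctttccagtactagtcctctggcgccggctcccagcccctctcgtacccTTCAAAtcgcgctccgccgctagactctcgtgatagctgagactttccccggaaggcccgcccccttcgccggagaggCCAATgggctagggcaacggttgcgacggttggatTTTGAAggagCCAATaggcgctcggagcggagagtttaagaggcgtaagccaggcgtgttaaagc
CDC6: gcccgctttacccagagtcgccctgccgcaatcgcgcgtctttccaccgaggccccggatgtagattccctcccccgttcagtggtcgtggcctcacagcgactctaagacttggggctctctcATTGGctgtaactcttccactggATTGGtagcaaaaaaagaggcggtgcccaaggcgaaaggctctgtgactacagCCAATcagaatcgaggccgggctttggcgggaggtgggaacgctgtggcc
DBF4: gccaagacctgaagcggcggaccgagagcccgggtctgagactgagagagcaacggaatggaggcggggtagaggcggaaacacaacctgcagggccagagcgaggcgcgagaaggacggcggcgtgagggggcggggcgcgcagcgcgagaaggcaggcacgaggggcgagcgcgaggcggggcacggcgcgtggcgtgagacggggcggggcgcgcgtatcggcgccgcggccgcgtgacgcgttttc

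In CCNB2, whose product is a B cyclin, 4 CCAAT boxes lay in the window and the CHR began 29 bases before the start. In CDC20, which encodes the mitotic activator of the anaphase-promoting complex, 2 CCAAT boxes and 2 matches to the CHR were found, 1 of them reversed. Over the members, CCAAT on either strand was present in 43 of 93 promoters (46.2%), against 32% of the 35116 promoters in the table. The letters TTTGAA were present in 11 of 93 (11.8%), against 13.3% of all promoters. E2F letters, searched as TTTGGCGC, TTTCCCGC or TTTCGCGC on either strand, were present in 13 of 93 (14%), against 2.32%. For each member gene 1 promoter was taken, the nearest to the start of its entry. The shares over all promoters count every promoter in the table, whether or not its gene was expressed here, so the sets are unlike. These matches are descriptions of the letters in the window, and none of the strings searched contains another.

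Cell cycle transcripts were present at near equal levels in DMSO and SF1-8 libraries. The summed FPKM of all members (fragments per kilobase of gene scaled for sequencing depth, a per-length level) was 1798 and 1750 in the DMSO libraries and 1791 and 1798 in the SF1-8 libraries. Abundant members weigh most in this sum, such as YWHAQ at an FPKM of 124.7 to 130.5, and members at low levels hardly enter it. Of 110 entries, 103 passed edgeR's filter on low counts and were tested. In the edgeR quasi-likelihood fit, with Benjamini-Hochberg adjustment over the whole table, 0 of 103 had an adjusted p under 0.05, where 0.042% of the 26167 entries tested over the whole table did. DESeq2 also called 0 members. At an unadjusted p under 0.05, 2 members were higher with SF1-8, WEE1 and DBF4, and 0 were lower, that is 1.94% of the members against 4.33% of all entries. By direction, 1.78% of all entries were higher and 2.54% were lower at that threshold. The members' share was thus below that of the whole table, and their smallest adjusted p was 0.9702 in the edgeR quasi-likelihood fit.

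**Figure D1:**
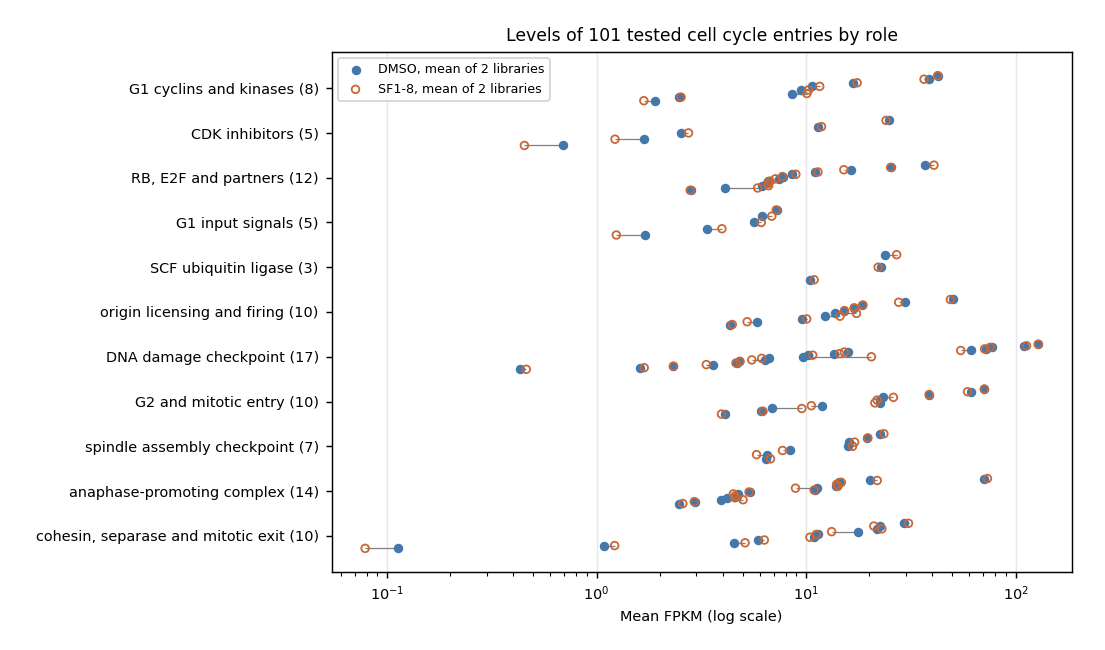
Mean FPKM (log axis) of 101 of the 103 tested cell cycle entries in DMSO (filled points) and SF1-8 (open points), each a mean of 2 libraries, in rows by role with the number of entries. The points of most entries lie on each other, and the widest gaps are at YWHAB (DNA damage checkpoint) and CDKN1A (CDK inhibitors).

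The fold changes were small and, for most members, closely bounded. The median log2 fold change (SF1-8 over DMSO) was 0.040, with quartiles at -0.032 and 0.107, against a median of -0.011 over all entries. For 95 of 103 members the 95% interval of the fold change lay within 2-fold either way, against 45.9% of all entries, and for 82 it lay within 1.5-fold, against 30.7%. The members were also more abundant than the table as a whole, with a median FPKM of 10.48 against 1.131, and their median SE on the log2 scale was 0.09919 against 0.3309. The log2 fold change was above 0 for 69 of 103 members (67%), against 48.4% of all entries. With limma on log2(FPKM + 1), it was above 0 for 57 of 103 (55.34%), in a fit whose median over all entries was -0.021. In 19 of 103 members the difference between treatments exceeded the larger difference between replicates, against 20.9% of all entries. Fewer cells in a phase of the cycle and less RNA per cell cannot be told apart in these bulk libraries.

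Non-overlap of the groups gave a count in either direction. By FPKM, each SF1-8 library exceeded each DMSO library in 17 of 103 members, against 14.2% of all entries, and was below each in 10, against 20%. On TMM-scaled counts, the numbers were 26 above, against 17.3% of all entries, and 8 below, against 18.1%. Among the 10 lower by FPKM were PKMYT1, ORC6, CDKN2D, CHEK2, CDKN2C, SMC1B, ORC1, ATR and PRKDC, and the 10 came from 5 of the 11 roles.

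**Figure D2:**
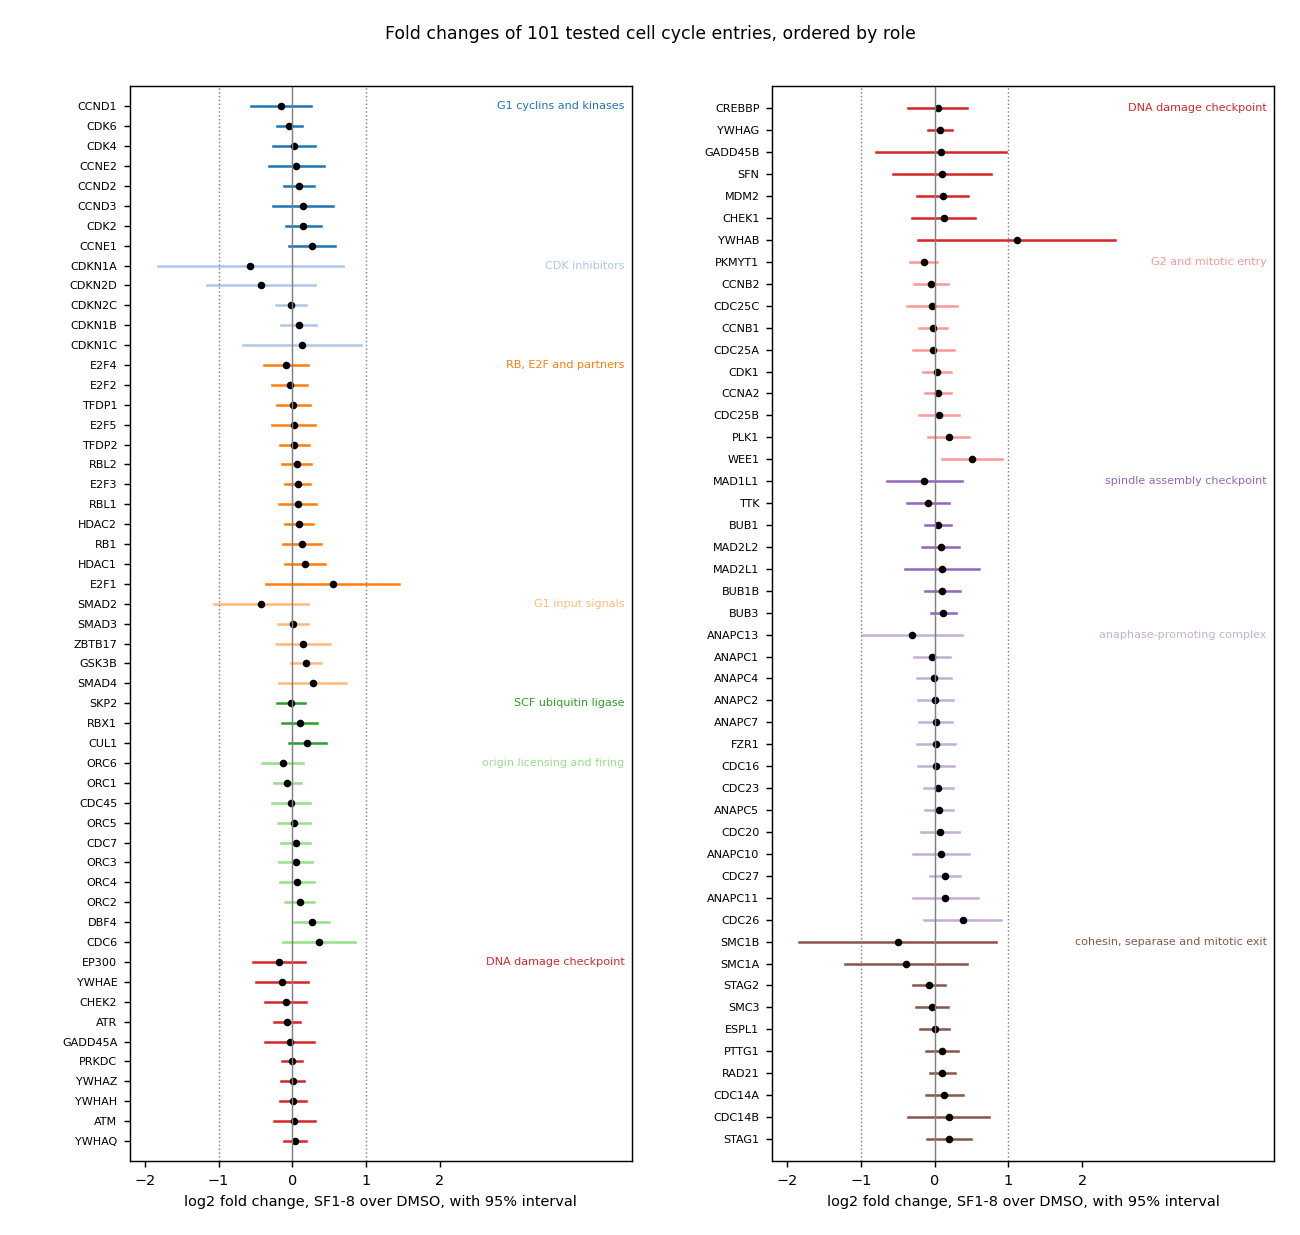
Log2 fold change of SF1-8 over DMSO (points) with its 95% interval (lines) for 101 of the 103 tested entries, coloured and ordered by role, with dotted lines at 2-fold either way. The intervals of WEE1 and DBF4 lie above 0, and those of YWHAB, E2F1, CDKN1A and SMC1B are among those that reach beyond 2-fold.

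Among the G1 cyclins and their kinases, 0 of 8 passed the test, with log2 fold changes from -0.15 to 0.27 and a median of 0.071. CDK4 and CDK6, the partners of D cyclins, were the most abundant. CDK4 had an FPKM of 42.4 and 43.1 in DMSO and 46.4 and 38.7 in SF1-8, and CDK6 had 40.9 and 35.9 in DMSO and 36.9 and 36.3 in SF1-8. The groups overlapped for both kinases. Of the D cyclins, CCND2 was the most abundant, at 16.3 and 17.3 in DMSO and 17.3 and 17.7 in SF1-8, although its entry also names TIGAR and AC008012. CCND1 was the least abundant at 2.11 and 1.71 in DMSO and 1.61 and 1.76 in SF1-8. CCND3 stood at 11.3 and 10.2 in DMSO and 9.80 and 13.45 in SF1-8. CCND1 thus differed far more from the other D cyclins than any of the 3 did between treatments. CCNE1, the E cyclin that activates CDK2, had an FPKM of 9.40 and 7.72 in DMSO and 9.71 and 10.5 in SF1-8. Both SF1-8 libraries were the higher, with a log2 fold change of 0.27 (95% interval -0.04 to 0.57, unadjusted p = 0.0754 in the edgeR quasi-likelihood fit). CDK2 stood at 9.56 and 9.30 in DMSO and 9.77 and 10.8 in SF1-8 (log2 fold change 0.15, interval -0.09 to 0.39).

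The CDK inhibitors were the role with the lowest median FPKM, 2.64. CDKN2A, which encodes p16 and p14ARF, was at a count of 0 in all 4 libraries. Its neighbour CDKN2B, which encodes p15, had counts of 4 and 8 in DMSO and 0 and 0 in SF1-8, too few to be tested. CDKN2C, which encodes p18, was by contrast the most abundant inhibitor, at an FPKM of 24.9 and 24.98 in DMSO and 24.6 and 23.6 in SF1-8 (log2 fold change -0.02, interval -0.23 to 0.18). CDKN1B, which encodes p27, stood at 11.7 and 11.1 in DMSO and 11.97 and 11.7 in SF1-8. CDKN1A, which encodes p21, a broad inhibitor of CDKs, had an FPKM of 0.839 and 0.546 in DMSO and 0.642 and 0.263 in SF1-8. The groups overlapped, the SF1-8 libraries differed more than 2-fold from each other, and the log2 fold change of -0.57 had an interval from -1.82 to 0.68. It was -1.36 without SF1-8 replicate 1, -0.06 without SF1-8 replicate 2 and -0.28 without DMSO replicate 1. CDKN2D, which encodes p19, was lower in both SF1-8 libraries, at 1.94 and 1.44 in DMSO and 1.42 and 1.03 in SF1-8, but the interval of its log2 fold change of -0.42 ran from -1.15 to 0.30. In this role 0 of 5 tested entries passed.

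RB, the E2F factors and their partners gave 0 of 12 past the test, with 10 log2 fold changes above 0 and a median of 0.064. RB1, the pocket protein that restrains E2F, had an FPKM of 6.73 and 5.60 in DMSO and 6.49 and 6.75 in SF1-8. HDAC1, a histone deacetylase recruited by RB, was the most abundant, at 34.5 and 39.2 in DMSO and 39.5 and 42.2 in SF1-8. E2F1, an activator of S phase genes, had 3.97 and 4.23 in DMSO and 7.95 and 3.80 in SF1-8. Only SF1-8 replicate 1 was high, and SF1-8 replicate 2 was the lowest of the 4 libraries. Its log2 fold change of 0.55 (interval -0.36 to 1.45) became -0.09 without SF1-8 replicate 1 and 0.99 without SF1-8 replicate 2. The other E2F genes tested, E2F2 to E2F5, had log2 fold changes between -0.09 and 0.07.

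Of the signals that feed into G1 and the SCF ubiquitin ligase, 0 of 5 and 0 of 3 passed. GSK3B, a kinase that marks cyclin D1 for decay, had an FPKM of 6.30 and 5.997 in DMSO and 6.98 and 6.74 in SF1-8. The groups did not overlap, and the log2 fold change was 0.19 (interval -0.02 to 0.39, unadjusted p = 0.0665 in the edgeR quasi-likelihood fit). SMAD2, a transducer of TGF-beta signals, stood at 1.31 and 2.08 in DMSO and 1.16 and 1.33 in SF1-8, with DMSO replicate 2 alone high. Its log2 fold change was -0.43, and -0.01 without that library. CUL1, the scaffold of SCF, had an FPKM of 22.8 and 25.1 in DMSO and 26.7 and 27.5 in SF1-8 (log2 fold change 0.20, interval -0.04 to 0.45). RBX1, its RING subunit, stood at 10.4 and 10.4 in DMSO and 10.6 and 11.2 in SF1-8, and SKP2, the F-box protein that targets p27, at 23.7 and 21.9 in DMSO and 21.5 and 22.7 in SF1-8.

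Origin licensing and firing held DBF4, 1 of the 2 members with an unadjusted p under 0.05. DBF4 is the regulatory subunit of the CDC7 kinase, which fires licensed origins. Its entry (chr7:87876216-87909553, + strand) had an FPKM of 13.4 and 11.4 in DMSO and 14.2 and 14.9 in SF1-8. Each SF1-8 library exceeded each DMSO library, and by FPKM DMSO replicate 1 was closer to the SF1-8 libraries than to DMSO replicate 2. The log2 fold change was 0.26 (SE 0.0923, interval 0.03 to 0.50, unadjusted p = 0.0361, adjusted p = 0.9702 in the edgeR quasi-likelihood fit), and it ranged from 0.19 to 0.34 when each library was left out. CDC7 itself stood at 18.5 and 18.4 in DMSO and 18.3 and 19.1 in SF1-8. CDC6, a loader of the replicative helicase, had 11.6 and 15.9 in DMSO and 16.1 and 18.7 in SF1-8. These groups did not overlap, but DMSO replicate 2 was nearly level with SF1-8 replicate 1, and the log2 fold change of 0.36 had an interval from -0.13 to 0.85. It was 0.12 without DMSO replicate 1 and 0.66 without DMSO replicate 2. CDC45, a part of the moving helicase, was the most abundant of this role, at 49.9 and 50.9 in DMSO and 44.9 and 52.8 in SF1-8. The 6 subunits of the origin recognition complex had log2 fold changes from -0.13 (ORC6) to 0.10 (ORC2).

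The DNA damage checkpoint was the largest role, and 0 of 19 tested entries passed. CHEK1, the kinase downstream of ATR, had an FPKM of 15.4 and 11.8 in DMSO and 12.5 and 16.4 in SF1-8, with overlapping groups. PRKDC, the catalytic subunit of DNA-PK, gave 1 of the closest bounds, at 78.5 and 76.6 in DMSO and 75.9 and 75.4 in SF1-8 (log2 fold change -0.01, SE 0.0539). MDM2, a ubiquitin ligase, stood at 11.8 and 8.60 in DMSO and 10.8 and 10.7 in SF1-8, and GADD45A, a stress-induced gene, at 15.7 and 16.1 in DMSO and 16.6 and 13.9 in SF1-8. Neither pair of groups separated.

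Some members overlap genes of the opposite strand. Exons of 44 of the 110 entries meet a gene of the opposite strand in GENCODE version 29, DBF4 among them. The share over all entries was not computed. Whether reads were counted by strand is not given in the sources used here.

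The 14-3-3 genes, which hold phosphorylated CDC25 in the cytoplasm among other roles, included the most abundant members. YWHAQ had an FPKM of 130.5 and 124.7 in DMSO and 127.4 and 129.3 in SF1-8, and YWHAG had 110.4 and 108.8 in DMSO and 109.5 and 116.3 in SF1-8. YWHAB gave the widest difference among all members, at 10.4 and 9.01 in DMSO and 31.3 and 9.75 in SF1-8. SF1-8 replicate 1 was at least 3-fold above every other library, and SF1-8 replicate 2 lay between the DMSO libraries. The log2 fold change of 1.11 had an interval from -0.23 to 2.45 (unadjusted p = 0.0862 in the edgeR quasi-likelihood fit). Without SF1-8 replicate 1 it was 0.04, and without SF1-8 replicate 2 it was 1.73, with an adjusted p of 0.01551 in the edgeR quasi-likelihood fit. That was the only member past the adjusted threshold under any alternative computed.

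**Figure D3:**
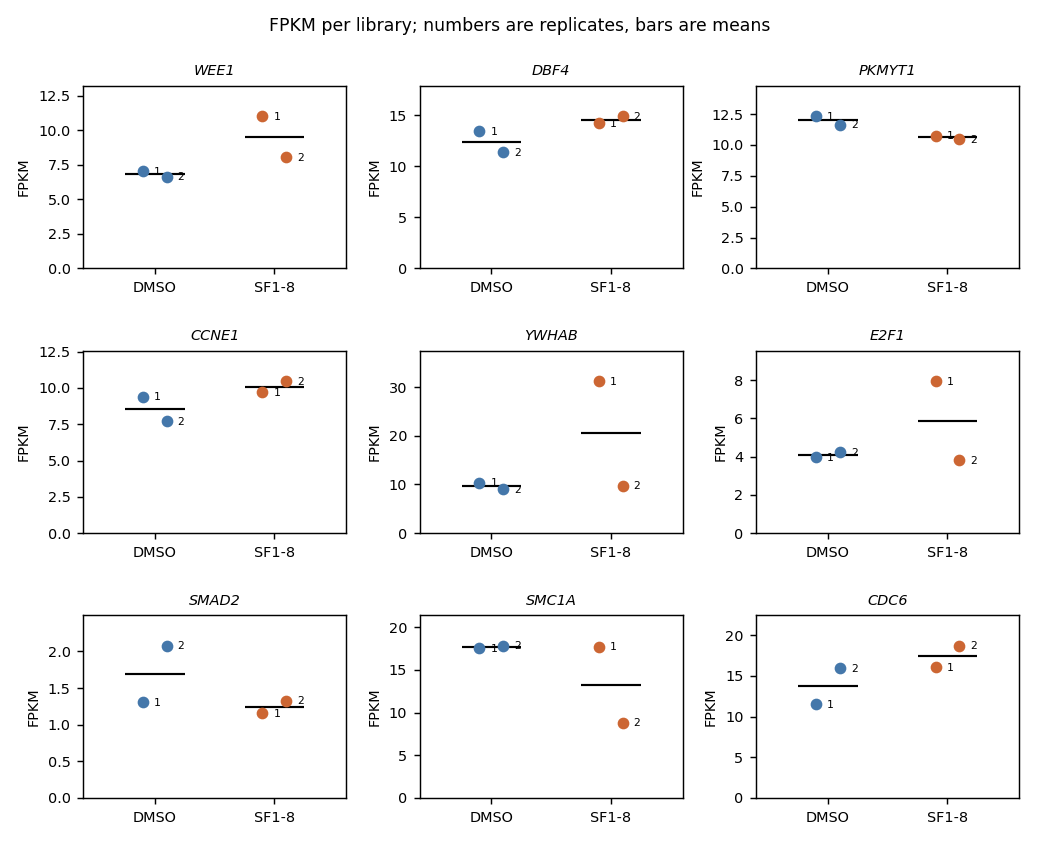
FPKM of 9 members in each library, with the replicate number beside each point and a bar at the mean of 2 libraries. WEE1 and DBF4 are higher in both SF1-8 libraries, CCNE1 and CDC6 are higher in both as well, PKMYT1 is lower in both, and YWHAB, E2F1, SMC1A and SMAD2 each have 1 library that stands apart.

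For entry into mitosis, WEE1 carried the smallest unadjusted p of all members. WEE1 is the nuclear kinase that holds CDK1 inactive by phosphorylation until mitosis. Its entry (chr11:9573670-9589985, + strand) had an FPKM of 7.05 and 6.64 in DMSO and 11.03 and 8.06 in SF1-8. Both SF1-8 libraries were higher, and they differed from each other by 1.38-fold, whereas the DMSO libraries were nearly equal once scaled. The fold change was 1.42 (log2 0.51, SE 0.162, interval 0.10 to 0.92, unadjusted p = 0.0246, adjusted p = 0.9702 in the edgeR quasi-likelihood fit). It was 0.26 on the log2 scale without SF1-8 replicate 1 and 0.73 without SF1-8 replicate 2. The entry also names AC122179, and restricting the members to entries of 1 gene leaves DBF4 as the only member with an unadjusted p under 0.05.

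PKMYT1, the membrane-bound kinase that also inhibits CDK1, pointed the other way, with an FPKM of 12.3 and 11.6 in DMSO and 10.8 and 10.4 in SF1-8. Its groups did not overlap, and the log2 fold change was -0.15 (interval -0.33 to 0.04, unadjusted p = 0.0965 in the edgeR quasi-likelihood fit). The kinase they act on, CDK1, was level at 38.4 and 38.7 in DMSO and 37.6 and 39.8 in SF1-8 (log2 fold change 0.03, interval -0.15 to 0.22). Its cyclins were level as well. CCNB1 had an FPKM of 65.0 and 57.4 in DMSO and 58.1 and 60.0 in SF1-8, CCNB2 had 24.3 and 20.7 in DMSO and 21.0 and 21.6 in SF1-8, and CCNA2 had 70.9 and 69.8 in DMSO and 68.7 and 73.3 in SF1-8. CDC25C, the phosphatase that removes the mark set by WEE1, stood at 4.001 and 4.19 in DMSO and 3.72 and 4.18 in SF1-8. PLK1, a kinase that promotes mitotic entry, had 21.8 and 24.8 in DMSO and 26.7 and 25.6 in SF1-8, without overlap (log2 fold change 0.19, interval -0.08 to 0.47). In this role 1 of 10 tested entries was higher at an unadjusted p under 0.05, and the germline-type genes CCNA1, CCNB3 and WEE2 were at or near 0.

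The spindle assembly checkpoint gave 0 of 7 past the test, and none of its log2 fold changes exceeded 0.14 in size. BUB1, a kinetochore kinase, had an FPKM of 19.7 and 19.2 in DMSO and 19.2 and 20.3 in SF1-8. BUB3, its binding partner, had 16.6 and 15.4 in DMSO and 16.7 and 17.4 in SF1-8 (log2 fold change 0.12, interval -0.06 to 0.29). MAD2L1, the inhibitor of CDC20, stood at 18.8 and 12.9 in DMSO and 18.8 and 14.6 in SF1-8, with replicate 1 above replicate 2 in each group. TTK, the kinase at the head of this checkpoint, had 9.06 and 7.66 in DMSO and 8.22 and 7.23 in SF1-8.

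Of the anaphase-promoting complex and its activators, 0 of 14 passed, with a median log2 fold change of 0.037. CDC20 was far above the rest, at an FPKM of 66.6 and 74.99 in DMSO and 72.9 and 74.0 in SF1-8. FZR1, the activator that takes over from CDC20 at the end of mitosis, had 3.02 and 2.86 in DMSO and 3.06 and 2.80 in SF1-8. The large difference in level between these activators was present in both treatments. CDC27, a core subunit, stood at 21.6 and 18.8 in DMSO and 21.2 and 22.6 in SF1-8. CDC26, a small subunit, had 4.01 and 3.83 in DMSO and 4.25 and 5.75 in SF1-8, without overlap, and SF1-8 replicate 2 accounted for most of the log2 fold change of 0.38 (interval -0.14 to 0.90), which was 0.16 without that library. ANAPC13 stood at 11.4 and 11.1 in DMSO and 11.3 and 6.51 in SF1-8, with SF1-8 replicate 2 alone low. The entry of ANAPC10 also names other genes, so its level cannot be assigned to the subunit.

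Cohesin, separase and the genes of mitotic exit gave 0 of 10 past the test. ESPL1, which encodes separase, the protease that opens cohesin, had an FPKM of 11.3 and 11.5 in DMSO and 11.1 and 11.3 in SF1-8, and the interval of its log2 fold change ran from -0.20 to 0.20. PTTG1, which encodes securin, its inhibitor, stood at 31.0 and 27.8 in DMSO and 29.7 and 32.0 in SF1-8. The cohesin subunit RAD21 had 22.8 and 20.9 in DMSO and 22.6 and 23.5 in SF1-8. SMC1A, another cohesin subunit, had 17.6 and 17.8 in DMSO and 17.7 and 8.79 in SF1-8. SF1-8 replicate 2 alone was low, and the log2 fold change of -0.39 (interval -1.21 to 0.44) became 0.04 without it. STAG1 was higher in both SF1-8 libraries, at 4.55 and 4.53 in DMSO and 4.67 and 5.57 in SF1-8 (log2 fold change 0.20, interval -0.10 to 0.49), and STAG2, its paralog in the same position of the ring, stood at 23.4 and 21.7 in DMSO and 22.3 and 19.8 in SF1-8.

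Replicates of a group were more than 1.5-fold apart in 8 of 103 members, against 46% of all entries. In 6 of them, CDKN1A, E2F1, YWHAB, SMC1B, ANAPC13 and SMC1A, it was the SF1-8 libraries that differed, against 30.6% of all entries. In SMAD2 and CDKN1C it was the DMSO libraries, against 34.4%. The libraries differed by more than 2-fold for CDKN1A, E2F1, YWHAB and SMC1A, against 29.9% of all entries. In all 8 of these members the difference between treatments was smaller than that between replicates. SF1-8 replicate 1 was the higher library in CDKN1A, E2F1, YWHAB, ANAPC13 and SMC1A, and SF1-8 replicate 2 in SMC1B.

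**Figure D4:**
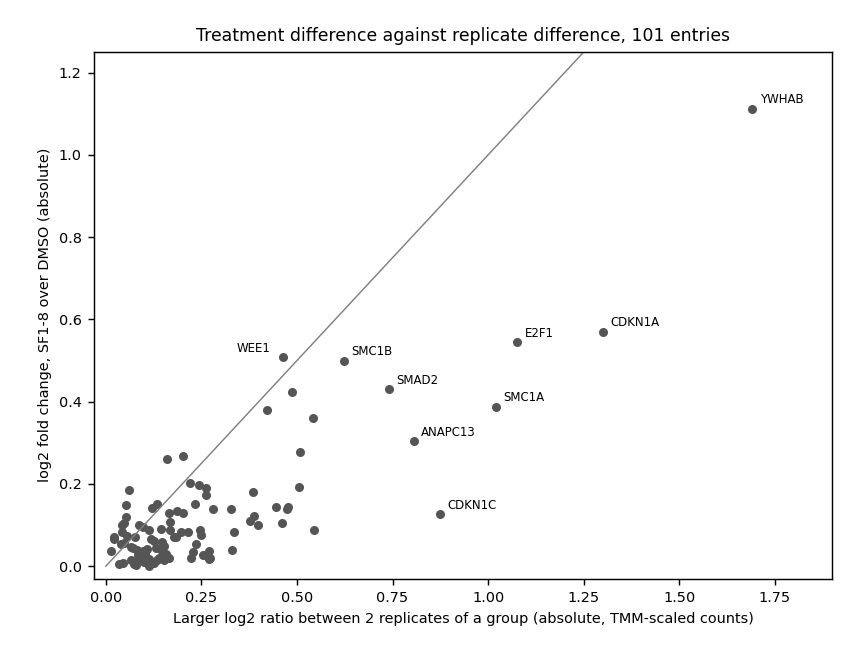
Size of the log2 fold change between treatments (vertical) against the larger log2 ratio between 2 replicates of a group (horizontal), on TMM-scaled counts, for 101 of the 103 tested entries, with a line where they are equal. The members with the widest treatment difference, YWHAB, CDKN1A and E2F1, lie below the line, and WEE1 lies just above it.

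By role, the medians of the log2 fold changes lay between -0.021 (CDK inhibitors) and 0.140 (signals into G1), and 10 of 11 were above 0 (8 to 11 under the alternatives). The summed FPKM of the genes of G2 and mitotic entry was 273.2 and 261.6 in DMSO and 263.6 and 273.1 in SF1-8. That of origin licensing and firing was 178.6 and 174.1 in DMSO and 171.7 and 186.6 in SF1-8. Neither sum separated the groups. The sum for RB, E2F and their partners did, at 138.7 and 140.7 in DMSO and 145.3 and 145 in SF1-8. So did that of SCF, at 56.88 and 57.37 in DMSO and 58.85 and 61.37 in SF1-8. That of signals into G1 was 24.35 and 23.93 in DMSO and 26.2 and 24.58 in SF1-8. The anaphase-promoting complex had 182.8 and 185.3 in DMSO and 188.5 and 186.6 in SF1-8. Each of these was higher in both SF1-8 libraries, and the sums of the remaining roles overlapped. Median log2 fold changes of members with and without the promoter letters searched lay close together. The median was 0.066 for 40 tested members with a CCAAT box and 0.017 for 46 without. It was 0.027 for 11 with TTTGAA and 0.044 for 75 without. With E2F letters it was 0.053 for 13, and it was 0.040 for 73 without. TTTGAA, searched as exact letters, was in 11.8% of the members' promoters and 13.3% of all. The split by these letters thus cannot single out genes that use the CHR.

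Further genes of these processes outside the members were counted at the unadjusted threshold. Over all entries 4.33% passed it, 1.78% higher and 2.54% lower with SF1-8. None of 7 genes of the MuvB, B-MYB and FOXM1 regulators of mitotic genes had an unadjusted p under 0.05. FOXM1 had an FPKM of 9.01 and 9.31 in DMSO and 8.62 and 8.46 in SF1-8, and MYBL2 had 61.3 and 60.9 in DMSO and 61.4 and 60.2 in SF1-8. Of 18 genes of the kinetochore, the passenger complex and mitotic motors, 1 was higher and 0 were lower at that threshold. It was SGO2, a protector of centromeric cohesin, at 3.12 and 2.59 in DMSO and 5.05 and 5.30 in SF1-8. Both SF1-8 libraries were well above both DMSO libraries, with a log2 fold change of 0.89 (SE 0.113, unadjusted p = 0.000464, adjusted p = 0.2698 in the edgeR quasi-likelihood fit). Of 9 mitotic ubiquitin and proliferation genes, 1 was higher, UBE2D1 (log2 fold change 0.38), and 0 were lower.

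The depth and identity of the libraries bear on all of these values. Total counts ranged from 45522905 in DMSO replicate 1 to 67554610 in SF1-8 replicate 1. The members held between 1.287% and 1.353% of the counts of entries with a gene name. The erythroid markers of K562 were present in every library, with a summed FPKM of 276.7 to 304.4 over 11 genes, of which HBG1, HBG2 and HBE1 share an entry, and 0 of 11 past an unadjusted p of 0.05. Markers of fibroblasts and stroma summed to an FPKM of 13.6 and 8.23 in DMSO and 6.06 and 4.26 in SF1-8. Among them, COL1A1 had an FPKM of 5.39 and 2.60 in DMSO and 1.21 and 0.098 in SF1-8. Its log2 fold change was -2.55 (unadjusted p = 0.0634 in the edgeR quasi-likelihood fit). Of the 9 markers tested, 5 were lower at an unadjusted p under 0.05, against 2.54% of all entries. These were COL1A2, COL3A1, DCN, LUM and PDGFRB. None of the stromal markers was listed at 0 in all libraries, but DCN, LUM and PDGFRB were near the floor, at an FPKM of 0.170 or less. PDGFRA, whose entry names 3 genes, made up much of the SF1-8 sums, at 3.48 and 3.67. PDGFRA and THY1 each had a log2 fold change of 0.154. Of 4 tested lymphocyte, 5 monocyte and 5 epithelial markers, 0 passed that threshold. The part of the stromal markers in the values of the cell cycle genes was not tested.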

How the data were processed

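RNA was measured by sequencing of rRNA-depleted total RNA in 4 libraries, and groups and replicate numbers were taken from the sample labels. The authors deposited 1 table of FPKM values, normalized by gene length and depth, and of unnormalized counts, taken here as estimated counts since StringTie appears in the submitters' processing notes, along with HISAT2, Bowtie2, cutadapt, FastQC and the build hg38. In the deposited FPKM columns 0.0001 stands in for 0. The 2095 entries without a gene name were left out, and 2088 entries name several genes. Among the members these are 14 (CCND2, SMAD4, ATR, MDM2, YWHAH, WEE1, BUB1B, MAD1L1, ANAPC1, ANAPC7, ANAPC10, ANAPC11, CDC14A and RAD21), whose values may hold reads of a neighbouring gene.

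Counts were tested by edgeR 4.0.16 (quasi-likelihood test, TMM, filterByExpr) in R 4.3.3, with adjustment over all 26167 entries. Each interval is an approximate 95% interval derived from that fit. Its SE was taken as the size of the log2 fold change over the square root of the F statistic. Of the members, 7 did not pass the filter: CCNA1, CDKN2A and PTTG2 at 0 in all libraries, and CDKN2B, GADD45G, CCNB3 and WEE2 with at most 12 counts in a library. Alternatives used DESeq2 1.42.0, limma 3.58.1 on log2(FPKM + 1) or log2(FPKM + 0.1), no filter, upper-quartile scaling, counts divided by 4, entries of 1 gene only, a replicate block, and each library left out. The commonest count above 0 was 4 in every library, so the counts may be larger than the reads behind them. With counts divided by 4, 18243 entries passed the filter, in place of 26167. The steps were tested on simulated data. The precision rests on 2 libraries per group, and since an estimated count is not a read, no counting interval was computed.

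Members, roles and gene lists were chosen with earlier results of these data known. Named genes were the landmark genes of each role, the most abundant and the 2 with the smallest p in each role, and all members with an unadjusted p under 0.05. Members whose replicates stood apart, SMC1A, ANAPC13, SMC1B and CDKN1C, and others used to complete a complex, were named after their values were seen. Promoter sequences are RefSeq's for GRCh38.p14. BUB3, CCND1, CCND2, CCNE2, CDK2, CDKN1C, E2F5, GADD45A, PKMYT1, PRKDC, RAD21, TTK, WEE1, YWHAZ and ZBTB17 had no entry in that table. Some members are counted but not otherwise reported here.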

Additional observations from a re-analysis of the deposited data

How the results depend on the processing

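No cell cycle entry passed the adjusted threshold under any alternative except YWHAB without SF1-8 replicate 2. Over the whole table, 11 entries passed in the edgeR quasi-likelihood test, 163 with DESeq2, 31 without a filter and 0 with limma in its 3 settings, and the cause was not tested. Entries at an unadjusted p under 0.05 numbered 1132, and 1754 with limma and no filter. The replicate numbers were not shown to pair the libraries, since same-numbered libraries did not deviate together (correlation 0.0165 over 26167 entries). With the replicate block, 0 entries of the table passed, 2 members were higher at an unadjusted p under 0.05 and the members' median log2 fold change was 0.042. Those 2 were WEE1 and CDC6 (log2 fold change 0.382, unadjusted p = 0.02522 in the blocked edgeR fit), whereas DBF4 had 0.262 and an unadjusted p of 0.06022 there. Members higher at that threshold numbered 0 with each limma setting and 1 among entries of 1 gene, and 1 was lower with limma and no filter. The members' median log2 fold change was 0.040 in the main fit and 0.025 with upper-quartile scaling. With limma it was 0.013, 0.015 and 0.013 (pseudocount 1, pseudocount 0.1, and pseudocount 1 with no filter). The median over all entries was -0.011 in the main fit and -0.026 with upper-quartile scaling. Members' median minus that of all entries was 0.051 in both of these fits. It was 0.034, 0.047 and 0.024 in the 3 limma settings.

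Leaving out each library gave 0 to 30 entries past the adjusted threshold and 1021 to 2267 at an unadjusted p under 0.05, 0 to 1 members called, 2 to 6 members higher and 1 to 3 lower at an unadjusted p under 0.05, and a median of 0.019 to 0.050. A left-out library leaves its group with 1 library, which is then assumed to vary like the other group. Of 51 named members tested, 31 kept the sign of their log2 fold change in every alternative, and 44 of 612 values had the opposite sign, all in the other 20. Outside the left-out libraries these were CDK4 (-0.014 in each limma setting), SMAD3 (-0.016, -0.018 and -0.016 with limma, -0.004 with counts divided by 4, -0.007 with upper-quartile scaling), FZR1 (-0.005, -0.007 and -0.005 with limma) and ESPL1 (-0.024, -0.025 and -0.024 with limma, -0.013 with counts divided by 4, -0.015 with upper-quartile scaling). With each library left out, the log2 fold changes ran from -0.091 to 0.351 for CCND3, -0.064 to 0.173 for CCNE2, -0.120 to 0.153 for CDK4, -0.089 to 0.013 for CDK6, -0.064 to 0.028 for CDKN2C, -0.087 to 0.99 for E2F1, -0.039 to 0.064 for SMAD3, -0.129 to 0.092 for CDC45, -0.080 to 0.305 for CHEK1, -0.175 to 0.096 for GADD45A, -0.061 to 0.309 for MDM2, -0.065 to 0.027 for CCNB1, -0.106 to 0.050 for CDC25C, -0.011 to 0.085 for CDK1, -0.100 to 0.353 for MAD2L1, -0.021 to 0.202 for MAD2L2, -0.182 to 0.017 for TTK, -0.044 to 0.213 for CDC20, -0.048 to 0.094 for FZR1 and -0.056 to 0.064 for ESPL1. Over the same left-out libraries, the unadjusted p of the edgeR fit ran from 0.000854 to 0.07488 for WEE1 and from 0.02158 to 0.1353 for DBF4.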
